A study of Mus musculus with 8 samples.

Results

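Myopalladin (*Mypn*) and 9 genes whose proteins tie actin filaments to anchoring points were examined in the dental pulp (DP) transcriptome, 10 of the 12148 genes in the expression table. *Mypn* was chosen because it fell in the mutant pulp, so its genotype difference is given below as a description without a test. The other 9 genes, *Palld*, *Actn1*, *Actn4*, *Flna*, *Nexn*, *Pdlim5*, *Pdlim7*, *Csrp1* and *Zyx*, were listed for their roles at actin anchors. Earlier results of these data were known when they were listed. All 10 were in the table and none was lost to a filter on low values.

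RNA-Seq was performed at postnatal day 7 (P7) on DP of mandibular first molars from C57BL/6J mice. The control group was Osterix-Cre (4 libraries, numbered 49 to 52 in the labels). The *Tgfbr2cko* group (4 libraries, numbered 53 to 56) carried the same Cre together with *Tgfbr2*, the type II TGFβ receptor gene, flanked by loxP sites. Both genotypes therefore carried Osterix-Cre, and the Osterix promoter drives the recombinase in osteoblast- and odontoblast-forming mesenchyme, so cells outside that lineage are not its target. Left and right molars were combined, and the labels do not say whether each library came from a separate animal, so p-values measure the spread between these libraries. In bulk RNA, fewer cells of one type and less RNA per cell cannot be told apart.

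Myopalladin and palladin are relatives built from immunoglobulin-like domains that bind alpha-actinin. In striated muscle, myopalladin sits at the Z-disc, where it links alpha-actinin to nebulin and to the ankyrin-repeat protein that *Ankrd1* encodes, whereas palladin is found on stress fibers and focal adhesions of many cell types. The actin scaffold feeds back on transcription through the MRTF coactivators, which monomeric actin holds inactive and which act on genes with serum response factor (SRF).

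Between 8682872 and 13539670 reads per library fell on the 12148 genes. *Amelx* and *Ambn*, which encode enamel matrix proteins of ameloblasts, took 18.5% of the reads of mutant library 56 and between 0.326% and 2.74% in the other 7 libraries. The values the results turn on are therefore also given without library 56. The number in a library's title repeats within a genotype (libraries 49 and 50, 53 and 56, and 54 and 55 share one), and the labels do not say what it marks; libraries were treated as separate samples. *Tgfbr2* itself measured 7.16, 7.62, 7.64 and 7.52 in control libraries 49 to 52, in log2 units of reads scaled to a common library total (log2 CPM), and 7.02, 7.00, 7.16 and 7.61 in mutant libraries 53 to 56. The ranges overlapped, with a log2 fold change of -0.29 (limma, unadjusted p = 0.119, adjusted p = 0.79). Without library 56 it was -0.42 (unadjusted p = 0.0136), and the unadjusted p was under 0.05 in 3 of 18 alternative fits. The count covers the whole gene, recombined and not, in every pulp cell type.

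The 250 bases before the *Mypn* start are shown because *Mypn* is the member with the fall. They lie on the minus strand at chr10:63203953-63204202 (RefSeq, GRCm38.p6), and the capitals mark the TEAD motif CATTCC, read on the opposite strand, at 49 to 44 bases before the start.

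Mypn: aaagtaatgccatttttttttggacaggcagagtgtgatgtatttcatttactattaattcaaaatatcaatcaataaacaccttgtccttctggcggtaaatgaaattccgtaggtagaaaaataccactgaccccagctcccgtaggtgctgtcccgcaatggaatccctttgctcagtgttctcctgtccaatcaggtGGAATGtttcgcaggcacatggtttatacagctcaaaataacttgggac

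GC made up 41.2% of these bases. RefSeq promoter windows of 300 bases (250 before the start and 50 after) were matched for 9 of the 10 genes, in 13 windows, and *Nexn* had none. Searched on both strands, the CArG box of SRF was in 0 of the 13 windows and in 1.63% of all 32851 windows. The TEAD letters were in 4 windows, those of *Mypn*, *Palld*, *Actn4* and *Flna*, against 14.7% of all windows. The SMAD letters CAGAC were in 5 windows, of *Palld*, *Actn4*, *Csrp1* and *Zyx*, against 49.6% of all windows. These matches describe letters only and were not tested as binding sites.

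*Mypn* was present at moderate levels in every control library and was lower in every mutant library. It lies on chr10:63115795-63203952 (GRCm38, minus strand). In control libraries 49, 50, 51 and 52 it measured 6.86, 6.58, 7.21 and 7.34 log2 CPM, and in mutant libraries 53, 54, 55 and 56 it measured 5.35, 5.86, 5.88 and 4.40. Every mutant value was below every control value, and library 56 was the lowest of all. The mutant mean was lower by a log2 fold change of -1.63 (SE 0.29), which is 32.4% of the control level. Without library 56 the log2 fold change was -1.30, and with any other single library left out it lay between -1.80 and -1.51. Between 285 and 1656 reads per library stood behind these values, so counting error was small beside the spread between libraries.

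Palladin (*Palld*, chr8:61511433-61902690), the broadly expressed relative, did not share the fall. It measured 7.47, 7.48, 7.36 and 7.11 log2 CPM in Osterix-Cre and 7.42, 7.26, 7.14 and 7.47 in *Tgfbr2cko*, so the genotypes overlapped. The log2 fold change was -0.04 (95% interval -0.34 to 0.27, adjusted p = 0.998). Levels of the pair were compared within each library after division by exon length. *Mypn* made up 53.7%, 48.7%, 61.5% and 67.4% of the summed *Mypn* and *Palld* level per length in control libraries 49 to 52. In mutant libraries 53 to 56 it made up 29.6%, 40.1%, 42.4% and 17.4%. Per exon length *Mypn* thus stood level with or above its relative in the controls and below it in all 4 mutants. Before division by length, *Mypn* was below *Palld* in control libraries 49, 50 and 51 and above it in 52. The order in the controls therefore rests on the length used, which merges all annotated exons of a gene. Because this share contains *Mypn*, it is a description as well. The third family member, myotilin (*Myot*), was not analysed here.

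**Figure D1:**
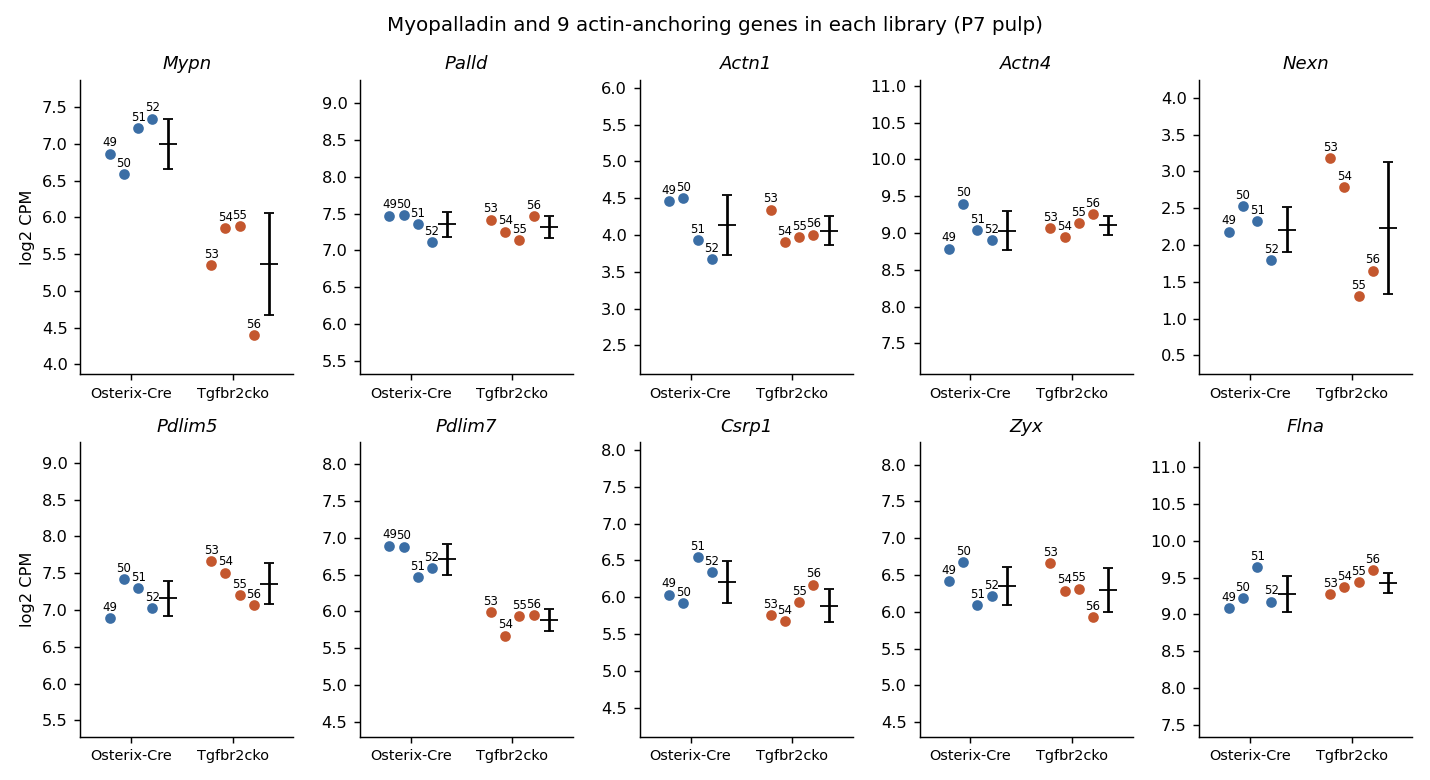
Level of each of the 10 genes in log2 CPM for 4 Osterix-Cre and 4 Tgfbr2cko libraries; points are libraries with their label numbers, black bars the mean ± SD (n = 4), and every panel spans 4 log2 units. The genotypes are separate for Mypn and Pdlim7 and overlap in the other 8 panels.

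Among the 9 partners, 1 gene was altered (unadjusted p under 0.05 and at least 1.5-fold), and it was lower in the mutants. Of all 12148 genes, 3.65% were altered and lower and 2.12% were altered and higher, so a count of 1 in 9 says little beside that background. The same gene, *Pdlim7*, was the only partner with an adjusted p under 0.05 (Benjamini-Hochberg over all genes), a call that 0.947% of all genes met. It was also the only partner whose genotypes did not overlap, which 3.14% of all genes did in the lower direction. The median log2 fold change of the 9 partners was -0.04, against -0.01 for all genes.

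*Pdlim7* encodes enigma, a protein with 1 PDZ domain and a row of LIM domains that sits on actin filaments and is also known, from work in bone-forming cells, as LIM mineralization protein. It lies on chr13:55495795-55513676. In control libraries 49 to 52 it measured 6.90, 6.88, 6.47 and 6.58 log2 CPM, and in mutant libraries 53 to 56 it measured 5.99, 5.67, 5.93 and 5.95. All mutant values lay within a narrow band below the lowest control. *Pdlim7* fell by 0.82 on the log2 scale (SE 0.15, 95% interval -1.15 to -0.50, adjusted p = 0.0191), to 56.6% of the control level. The exact two-sided permutation test over the 70 arrangements of 4 against 4 gave p = 0.0286, the smallest it can give, and it counts each library as separate. The fall was as large without library 56, at -0.84. The unadjusted p stayed under 0.05 in 18 of 18 alternative fits and the adjusted p in 12 of 18, with a range from 0.00688 to 0.0725; it was lost without library 49 (0.0642), 50 (0.0725), 54 (0.0635) or 55 (0.0645), without the intensity trend (0.0512), and with libraries that share a title number averaged to 3 controls and 2 mutants (0.0576).

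The alpha-actinins, which crosslink antiparallel actin filaments and carry the docking site for palladin-family proteins, did not pass the test. *Actn4* (chr7:28893248-28962340), the abundant nonmuscle form, measured 8.79, 9.40, 9.04 and 8.90 log2 CPM in Osterix-Cre and 9.07, 8.95, 9.14 and 9.26 in *Tgfbr2cko*. Its log2 fold change was 0.07 (95% interval -0.29 to 0.44, adjusted p = 0.998). *Actn1* (chr12:80167547-80260371) measured 4.46, 4.50, 3.93 and 3.67 in Osterix-Cre and 4.35, 3.90, 3.97 and 4.01 in *Tgfbr2cko*. Its log2 fold change was -0.08 (95% interval -0.56 to 0.40, adjusted p = 0.998). Both intervals exclude a loss of the size seen for *Pdlim7*. The muscle forms *Actn2* and *Actn3* were not analysed here. On the opposite strand, *Capn12* shares 5.16% of the exon bases of *Actn4*, and antisense transcripts share 6.56% and 1.59% of those of *Actn1*, while *Epha1* shares 4.38% of those of *Zyx*; whether the counting used strand is not given in the sources used here.

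Filamin A (*Flna*, chrX:74223461-74249820) folds actin filaments into networks and tethers them to integrins. It measured 9.09, 9.22, 9.64 and 9.17 log2 CPM in Osterix-Cre and 9.28, 9.37, 9.44 and 9.60 in *Tgfbr2cko*, with a log2 fold change of 0.14 (95% interval -0.22 to 0.51, adjusted p = 0.978). Nexilin (*Nexn*, chr3:152236982-152266350), an actin-binding protein of Z-discs and adhesions, was the least abundant member, with only 21 to 84 reads per library, and an overlapping transcript on the same strand shares 7.50% of its exon bases. It measured 2.18, 2.52, 2.32 and 1.80 log2 CPM in Osterix-Cre and 3.18, 2.78, 1.31 and 1.65 in *Tgfbr2cko*. The mutant libraries held both the highest and the lowest values, and the log2 fold change of 0.03 has a 95% interval of -0.83 to 0.88 (adjusted p = 0.998), so a change of the size seen for *Pdlim7* was not detectable at this depth and spread.

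*Pdlim5* (chr3:142239590-142395696) encodes the enigma homolog, a PDZ and LIM protein that brings kinases to alpha-actinin. Its values were 6.89, 7.42, 7.30 and 7.03 log2 CPM in Osterix-Cre and 7.66, 7.51, 7.20 and 7.07 in *Tgfbr2cko*. The log2 fold change was 0.20 (95% interval -0.17 to 0.57, adjusted p = 0.926), a sign opposite to that of *Pdlim7*, its closest relative among the members. *Csrp1* (chr1:135720061-135752232), a protein of 2 LIM domains that binds alpha-actinin and zyxin, measured 6.04, 5.92, 6.55 and 6.34 in Osterix-Cre and 5.75, 5.67, 5.94 and 6.17 in *Tgfbr2cko*. The mutant values leaned low but overlapped the controls, with a log2 fold change of -0.33 (95% interval -0.70 to 0.05, adjusted p = 0.708). Without library 56 it was -0.42 (adjusted p = 0.406). Zyxin (*Zyx*, chr6:42349630-42360213), a LIM protein that moves onto strained stress fibers, measured 6.41, 6.67, 6.09 and 6.21 in Osterix-Cre and 6.66, 6.29, 6.31 and 5.93 in *Tgfbr2cko*. Its log2 fold change was -0.05 (95% interval -0.44 to 0.34, adjusted p = 0.998).

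**Figure D2:**
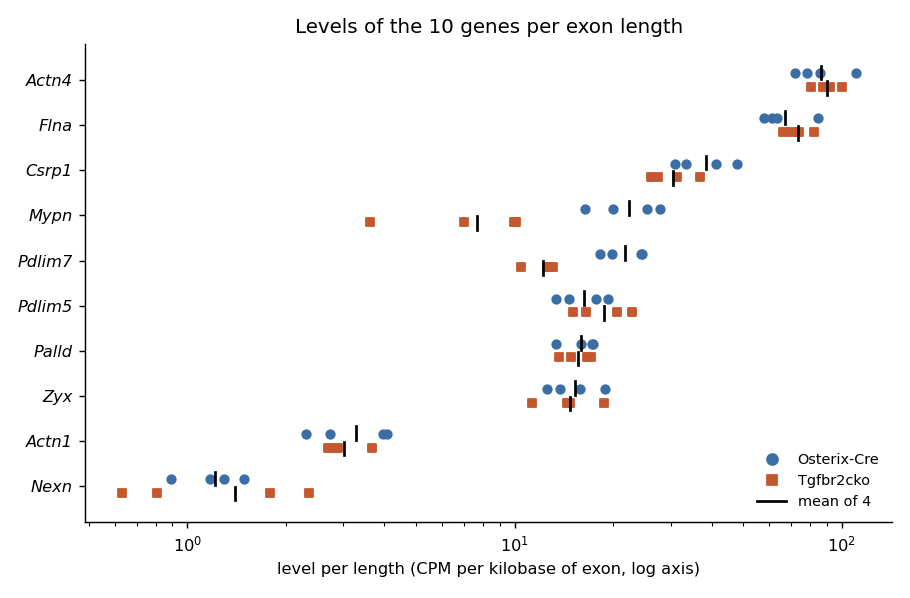
Level per exon length (CPM per kilobase of exon, log axis) of the 10 genes in each library, ordered by control mean; black ticks are means of 4. Mypn averages 22.4 CPM per kilobase in the controls and 7.66 in the mutants, while Actn4 and Flna head the order in both genotypes.

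Levels of different genes were compared as CPM per kilobase of merged exon. In the controls *Actn4* (86.6 ± 16.8, SD, n = 4) and *Flna* (66.9 ± 12.1) stood highest, and their ranges overlapped. *Csrp1* followed at 38.4 ± 7.66, separate from its neighbours on both sides. *Mypn* (22.4 ± 5.14), *Pdlim7* (21.7 ± 3.19), *Pdlim5* (16.3 ± 2.70), *Palld* (16.0 ± 1.83) and *Zyx* (15.3 ± 2.79) came next, and each overlapped the gene after it in this order. *Actn1* (3.27 ± 0.888) and *Nexn* (1.21 ± 0.249) were lowest and separate from each other and from *Zyx*. In control pulp, a gene best known from striated muscle thus had a level per length whose range overlapped those of *Pdlim7*, *Palld* and *Zyx* and lay above that of *Actn1*. In the mutants *Mypn* was at 7.66 ± 3.06 and *Pdlim7* at 12.2 ± 1.17, the eighth and the seventh of the 10, and *Mypn* stayed above *Actn1* (3.02 ± 0.437) within each of the 4 mutant libraries.

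The close family of the members was a list of 21 palladin, actinin, filamin, PDLIM, CSRP and nexilin genes, of which 15 were in the table. Leaving *Mypn* out, 2 of the 14 measured genes were lower (*Pdlim7* and *Pdlim3*) and 1 was higher (*Pdlim1*), which is 14.3% and 7.14% beside the 3.65% and 2.12% of all genes. The median log2 fold change of these 14 was -0.09. The muscle members *Actn2*, *Actn3*, *Flnc*, *Ldb3*, *Csrp3* and *Myot* were not analysed here.

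*Pdlim3*, which encodes the actinin-associated LIM protein, measured 5.59, 5.33, 4.93 and 5.08 log2 CPM in Osterix-Cre and 4.77, 4.45, 5.24 and 4.08 in *Tgfbr2cko*. Library 55 lay among the controls, and the log2 fold change was -0.60 (SE 0.24, adjusted p = 0.438). It was altered in 10 of 18 alternative fits, and not without library 49 (-0.48), 50 (-0.56), 54 (-0.54) or 56 (-0.41). *Pdlim1*, which encodes the stress-fiber protein elfin, went the other way. Its values were 6.09, 5.89, 5.75 and 5.30 in Osterix-Cre and 6.46, 5.96, 6.45 and 6.52 in *Tgfbr2cko*, and only library 54 lay among the controls. The log2 fold change was 0.59 (SE 0.19, adjusted p = 0.243). Its unadjusted p passed in 18 of 18 alternative fits, but the change dropped under 1.5-fold without library 52 (0.44), 53 (0.55), 55 (0.55) or 56 (0.53). The 6 measured PDLIM genes therefore held 2 that were lower, 1 that was higher and 3 that did not pass, since *Pdlim2* (-0.11, adjusted p = 0.998) and *Pdlim4* (-0.15, adjusted p = 0.98) stood with *Pdlim5*.

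*Csrp2*, a sister of *Csrp1* known from smooth muscle and stellate cells, measured 6.88, 6.78, 6.86 and 6.70 log2 CPM in Osterix-Cre and 6.26, 6.52, 6.21 and 5.98 in *Tgfbr2cko*. All 4 mutants lay below the controls. The log2 fold change was -0.56 (SE 0.15, adjusted p = 0.114). Its unadjusted p was under 0.05 in all 18 alternative fits, but the change was just under 1.5-fold, so *Csrp2* was not counted as altered; it was past 1.5-fold without library 52 (-0.59) or 54 (-0.66).

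**Figure D3:**
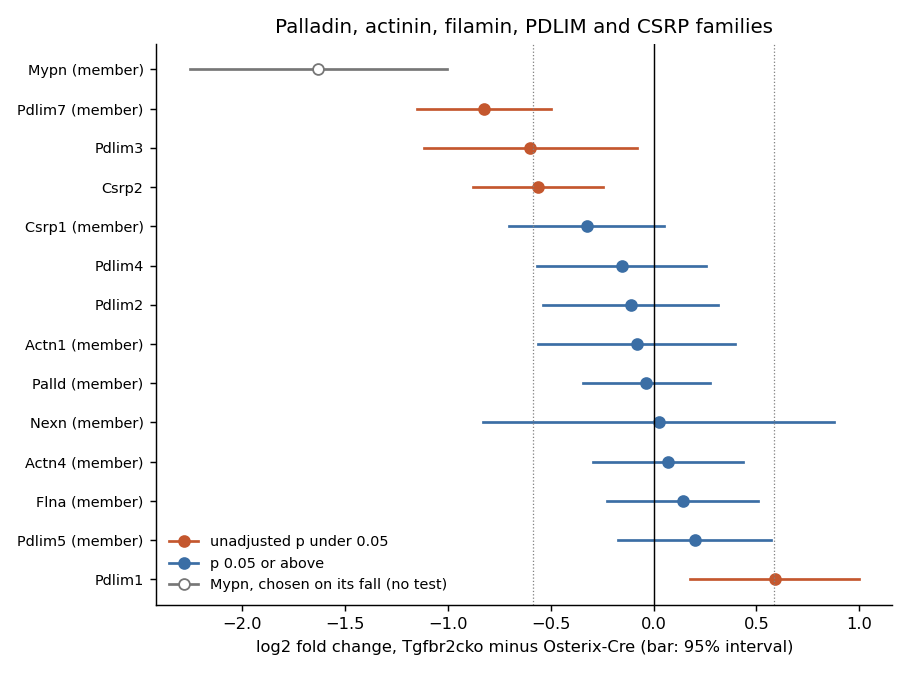
Log2 fold change (Tgfbr2cko minus Osterix-Cre) with its 95% interval for 14 measured genes of the palladin, actinin, filamin, PDLIM and CSRP families; dotted lines mark 1.5-fold and the open symbol marks Mypn, which was chosen on its fall and not tested. Pdlim7, Pdlim3 and Csrp2 lie below 0 and Pdlim1 above it, and the intervals of the other 9 tested genes cross 0.

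Direct myopalladin partners and the MRTF-SRF switch made up a list of 10 genes, of which 6 were measured, and 1 was lower. That is 16.7% beside the 3.65% of all genes, and it rests on 1 gene. *Ankrd23*, a muscle ankyrin-repeat protein gene, measured 0.75, 1.66, 0.79 and 0.86 log2 CPM in Osterix-Cre and 0.37, 0.34, -0.03 and 0.20 in *Tgfbr2cko*. These values rest on 8 to 30 reads per library, and the log2 fold change of -0.80 (SE 0.36, adjusted p = 0.584) was past both thresholds in 6 of 17 alternative fits and, of those with 1 library left out, only in the one without library 49. Nebulette (*Nebl*), the nonskeletal relative of nebulin, measured 7.78, 7.72, 7.82 and 7.82 in Osterix-Cre and 7.67, 7.86, 7.62 and 6.37 in *Tgfbr2cko*. Libraries 53, 55 and 56 lay below every control, with 56 far below the others. The log2 fold change of -0.41 did not pass (adjusted p = 0.828) and was -0.07 without library 56. *Srf* (0.32, adjusted p = 0.942), *Mrtfa* (-0.09, adjusted p = 0.998) and *Mrtfb* (-0.11, adjusted p = 0.997) did not pass.

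Among 28 listed SRF-MRTF target genes, 23 were measured, 0 were lower and 1 was higher (4.35%), with a median log2 fold change of 0.06. These counts stand near the 3.65% of all genes that were lower and the 2.12% that were higher. The higher gene was *Fhl2*, a LIM-only protein gene, which measured 2.63, 2.33, 2.13 and 1.48 log2 CPM in Osterix-Cre and 3.05, 3.32, 3.88 and 5.31 in *Tgfbr2cko*. The genotypes did not overlap, and library 56 was highest. The log2 fold change was 1.75 (SE 0.43, adjusted p = 0.0843), and 1.28 without library 56. The 2 most abundant targets, the cytoplasmic actin gene *Actb* (0.26, adjusted p = 0.971) and the cofilin gene *Cfl1* (0.01, adjusted p = 0.998), did not pass.

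Focal adhesion genes and zyxin partners numbered 27 measured of 28, of which 0 were higher and 1 was lower (3.70%, beside 3.65% of all genes). It was *Tns1*, the gene of the integrin-tail binding protein tensin 1, at -0.60 (SE 0.20, adjusted p = 0.287), with values of 6.97 to 7.41 log2 CPM in Osterix-Cre and 5.97 to 7.03 in *Tgfbr2cko*. It was under 1.5-fold without library 49 (-0.57), 50 (-0.52) or 56 (-0.39). *Lasp1*, a LIM and SH3 protein that binds zyxin and palladin, measured 7.82 to 8.28 in Osterix-Cre and 7.54 to 7.69 in *Tgfbr2cko*. Its ranges did not overlap and its unadjusted p was under 0.05, but the log2 fold change of -0.37 (adjusted p = 0.397) was under 1.5-fold. The parvin gene *Parva* stood at -0.04 (adjusted p = 0.998).

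Of 16 measured genes in a list of 18 other LIM-domain actin proteins, 1 was lower (6.25%) and 2 were higher (12.5%). The shares of all genes were 3.65% and 2.12%, and the median log2 fold change of the list was -0.12. The lower gene is not reported here. *Mical2*, whose enzyme oxidizes actin and disassembles filaments, measured 3.14 to 3.47 log2 CPM in Osterix-Cre and 3.53 to 4.66 in *Tgfbr2cko*, without overlap (log2 fold change 0.72, SE 0.24, adjusted p = 0.275), and it was under 1.5-fold without library 56 (0.51). The second higher gene was *Fhl2* again, which is on both lists, and *Limch1* stood at -0.11 (adjusted p = 0.998).

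The filament genes themselves, 13 measured of 16 actins, tropomyosins and nonmuscle myosin II subunits, held 0 altered genes, with 1 at an unadjusted p under 0.05 and a median log2 fold change of 0.06. *Actg1* stood at 0.10 (adjusted p = 0.998). Of 15 measured bundlers and crosslinkers out of 18, 0 were altered and 0 had an unadjusted p under 0.05, with a median of 0.07, *Marcks* at -0.29 (adjusted p = 0.962; -0.57 without library 53, where its unadjusted p was under 0.05, and -0.11 without library 50) and *Pls3* at 0.19 (adjusted p = 0.945). Over the union of these lists without *Mypn*, 98 of 120 genes were measured, 5 were lower (5.10%) and 3 were higher (3.06%), near the 3.65% and 2.12% of all genes. The median over the union was -0.05. The count of lower genes fell to 2 without control library 50 and to 3 without any one of libraries 49, 51 and 56, and the count of higher genes fell to 1 without library 56.

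**Figure D4:**
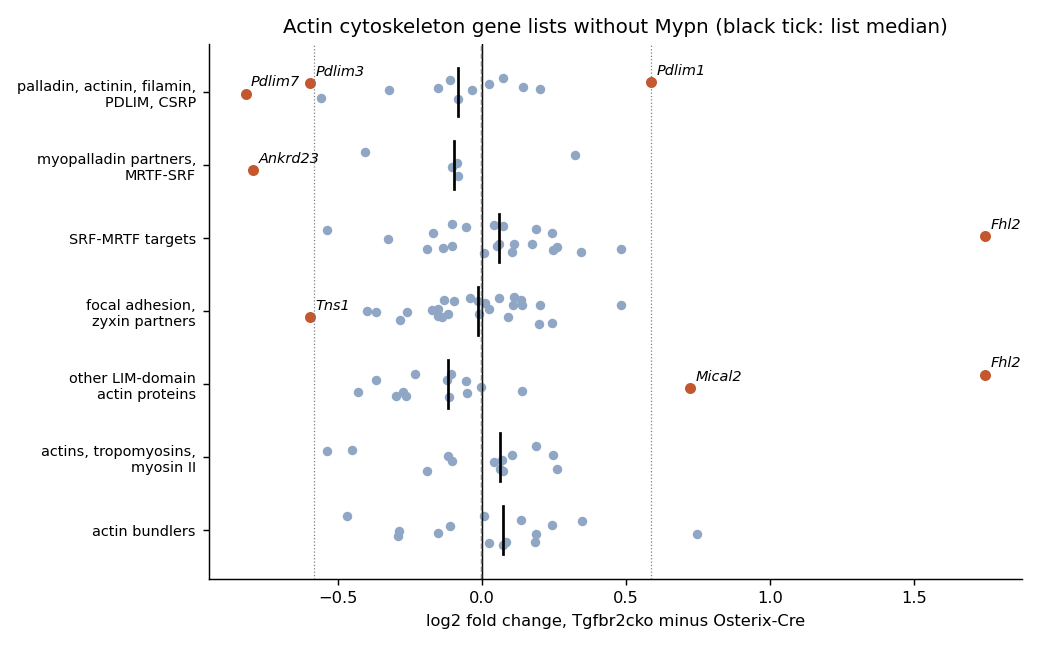
Log2 fold change (Tgfbr2cko minus Osterix-Cre) of the measured genes plotted for 7 actin cytoskeleton lists without Mypn; vertical spread within a list is only for display, orange points are altered genes, black ticks list medians, dotted lines 1.5-fold and the dashed line the median of all genes. The filament and bundler lists hold no altered gene, and Fhl2, on 2 lists, lies farthest out.

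The variation of *Mypn* among libraries of one genotype was compared with that of other genes by Pearson's r of the deviations from the genotype mean, over 8 libraries. This measure leaves out the genotype difference on which *Mypn* was chosen. The libraries share one scaling to total reads, and library 56 is the farthest point, so r is a description. The 5 genes most like *Mypn*, of 10312 whose mean log2 CPM was 3 or more, were *Adamts14* (r = 0.99), *Map3k6* (0.99), *Shisa4* (0.99), *Bicd1* (0.99) and *Nfatc1* (0.99). They stayed between 0.97 and 0.99 without library 56, but 191 genes (1.85%) had an r above 0.9.

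The odontoblast dentin gene *Dspp* ranked 504th, with r = 0.83 (Spearman's rho 0.83) and 0.98 without library 56. The share of all genes with so high an r without library 56 was not counted. There the enamel organ marker *Mmp20* was also at 0.95, and *Zyx* was at -0.95. Over the 16 measured odontoblast and osteoblast markers the median r was 0.56, and single markers ran from -0.74 (*Runx2*, -0.50 without library 56) to 0.92 (*Sparc*, 0.84 without it), so *Dspp* does not stand for the whole list. *Palld* ran opposite to *Mypn*, with r = -0.79 (rho -0.93) and -0.88 without library 56, although its deviations spanned only -0.24 to 0.14 log2 units against -0.97 to 0.51 for *Mypn*. *Pdlim7* was at -0.56 and at -0.78 without library 56, so the 2 members that were lower in every mutant library did not vary together within a genotype. The r of most other members depended on library 56. Without it *Actn1* moved from -0.45 to -0.94, *Zyx* from 0.12 to -0.95, *Nexn* from 0.04 to -0.60 and *Pdlim5* from 0.21 to -0.51, while *Csrp1* moved from -0.11 to 0.72 and *Flna* from -0.15 to 0.42. *Actn4* was at -0.55 and at -0.49 without it, but at 0.38 without libraries 56 and 50. Of the 9 partners, *Palld*, *Pdlim7*, *Actn1* and *Actn4* had a negative r both with and without library 56, and the other 5 changed sign.

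**Figure D5:**
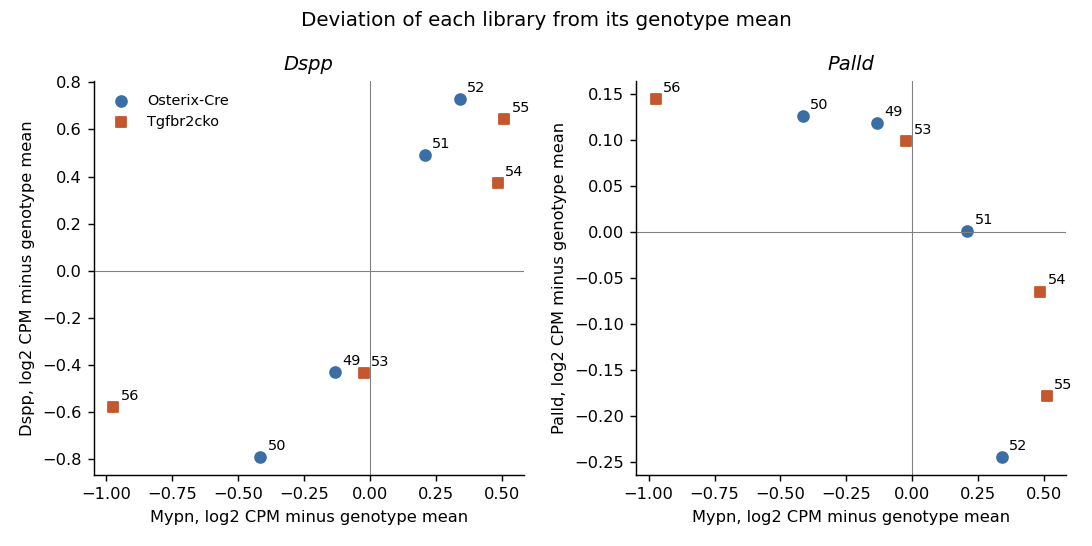
Deviation of each library from its genotype mean (log2 CPM) for Mypn (horizontal axis) against Dspp and Palld (vertical axes, on different scales); points are libraries with their label numbers. Dspp rises with Mypn and Palld falls, and library 56 lies alone at -0.97 for Mypn.

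Markers of the cell types in and around the pulp were summed per library beside the *Mypn* values. Striated muscle markers were nearly lacking in the table, with 2 of 30 measured (*Mylpf* and *Casq1*), and their summed level was 8.41 to 14.1 CPM in Osterix-Cre and 5.30 to 10.3 CPM in mutant libraries. The defining sarcomere genes *Acta1*, *Actn2*, *Ckm*, *Des*, *Neb* and *Ttn* were not analysed here. Smooth muscle and pericyte markers (7 of 12 measured, 1 lower) summed to 561 to 787 CPM in Osterix-Cre and 421 to 740 CPM in mutant libraries. Odontoblast and osteoblast markers (16 of 18 measured, 4 lower, 1 higher) summed to 81515 to 167650 CPM in Osterix-Cre and 52797 to 101331 CPM in mutant libraries, and these ranges overlap.

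Counts of altered markers are to be read beside the 3.65% of all genes that were lower and the 2.12% that were higher. The lower share stood above that background for the odontoblast (25%), endothelial (30%), immune (40%) and Schwann cell (42.9%) markers. It was also above it for the smooth muscle and pericyte (14.3%) and enamel organ (9.09%) markers. The higher share stood above it for the neuron (16.7%), enamel organ (9.09%) and odontoblast (6.25%) markers. The lists are short and were not tested. Endothelial markers (10 of 10 measured, 3 lower) summed to 426 to 642 CPM in Osterix-Cre and 329 to 451 CPM in mutant libraries. Immune markers (10 of 10, 4 lower) summed to 1103 to 1460 CPM and to 528 to 1128 CPM. Schwann cell markers (7 of 12, 3 lower) summed to 210 to 274 CPM and to 164 to 211 CPM, and neuron markers (6 of 18, 1 higher) to 108 to 150.0 CPM and to 134 to 209 CPM. Enamel organ markers (11 of 13, 1 lower, 1 higher) summed to 4193 to 23641 CPM and to 4462 to 195952 CPM, with library 56 at the top. The part of these cell types, the enamel organ included, in the *Mypn* and *Pdlim7* values was not tested. Alternative fits changed only how enamel matrix reads entered, so they do not measure that part. Besides the fits without library 56, totals without enamel matrix genes gave log2 fold changes of -1.55 for *Mypn* and -0.74 for *Pdlim7*, and the enamel matrix mean in the model, an alternative chosen after seeing the data, gave -1.40 and -0.87.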

How the data were processed

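DP RNA from 8 libraries (4 Osterix-Cre, 4 *Tgfbr2cko*, P7) was amplified from low input and sequenced without molecular identifiers. The submitters' processing notes list fastp 0.21.0, HISAT2 2.1.0, featureCounts from Subread 2.0.1, limma and GRCm38.p5. The authors kept genes passing the CLEAR workflow and deposited voom values, which are log2 CPM with 0.5 added to each count. These gave back whole reads (97184 values, at most 1.42e-05 from whole), so reads per value are known; 3 reads are 0.222 to 0.346 CPM, for counting error only. Columns of no sample numbered 0.

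The log2 values were compared in R 4.3.3 with limma 3.58.1 (intensity trend, two-sided, 12148 genes), tested on simulated data; altered means an unadjusted p under 0.05 and at least 1.5-fold. Positions and exon lengths came from GENCODE M21 (GRCm38), where 12144 identifiers matched and 4 did not. Promoters came from RefSeq.

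The members and lists were chosen with earlier results of these data known. Named genes were the members, their close family, altered genes and the 2 most abundant of each actin list, some markers, the 5 genes most like *Mypn*, and *Tgfbr2*; *Srf*, *Mrtfa*, *Runx2* and *Dspp* were added after their values were seen. A few listed genes are not reported here but stay in the fit and the counts. Alternatives were no trend, library weights, voom weights, quantile or median scaling, totals without enamel matrix genes, a mean log2 of at least 3, an offset of 2 reads, averaged title numbers (3 controls, 2 mutants), each library left out and a 2-fold limit.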

Additional observations from a re-analysis of the deposited data

How the results depend on the processing

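Over the 18 alternative fits, the *Mypn* difference stayed negative (-1.80 to -1.30 with 1 library left out, -1.72 to -1.37 otherwise) and *Pdlim7* stayed the only altered partner, with 0 altered at 2-fold. Its adjusted call was lost without the trend and with title numbers averaged (0 partners each), and partners passing ranged from 0 to 1 with 1 library left out (0 without libraries 49, 50, 54 or 55). The 5 lower actin genes became 3 with library weights, 3 after quantile scaling, 2 with totals without enamel matrix genes, 2 with averaged title numbers, 0 at 2-fold and 2 to 6 with 1 library left out. The 3 higher genes became 1 at 2-fold and 1 to 4 with 1 library left out. An alternative chosen after seeing the data, with the mean of *Amelx*, *Ambn* and *Enam* in the model, gave 3 lower and 1 higher. The cause of these shifts was not tested.

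Log2 fold changes near 0 changed sign: *Nexn* -0.0755, *Zyx* 0.0282 and *Cfl1* -0.0133 with library weights, *Cfl1* -0.0559 after quantile scaling, *Palld* 0.0425, *Zyx* 0.0269 and *Parva* 0.0363 with totals without enamel matrix genes, *Palld* 0.0056, *Actn1* 0.0309 and *Zyx* 0.0152 with averaged title numbers, and *Zyx* 0.0566, *Pdlim2* 0.10, *Pdlim4* 0.0208, *Parva* 0.14 and *Limch1* 0.12 with the enamel matrix mean. With 1 library left out, sign changes occurred for *Palld* (-0.12 to 0.0244), *Actn1* (-0.24 to 0.0380), *Actn4* (-0.0104 to 0.19), *Nexn* (-0.29 to 0.33), *Zyx* (-0.17 to 0.0724), *Pdlim2* (-0.24 to 0.0758), *Pdlim4* (-0.27 to 0.0066), *Mrtfb* (-0.22 to 0.0040), *Cfl1* (-0.11 to 0.10), *Parva* (-0.15 to 0.11), *Limch1* (-0.23 to 0.12) and *Actg1* (-0.0349 to 0.19). The median log2 fold change of all genes, -0.01, moved most among the scalings with totals without enamel matrix genes, to 0.07.

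No paired analysis was possible because the genotypes share only 1 title number. *Nexn* gave no value at a mean log2 of at least 3, and its 21 to 84 reads limit what can be seen.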
